A study of Mus musculus with 71 samples.

Results

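The comparison described here set pro-B cells that lack both central domains of the transcription factor Pax5, the octapeptide (OP) and the partial homeodomain (HD), against wild-type pro-B cells. It rests on the RNA-seq libraries of Pax5(DOP,HD/DOP,HD) pro-B cells, replicates 1 and 2, and of Pax5(+/+) pro-B cells, replicates 3 and 4, which were sequenced alike with reads of 100 nucleotides, and so on 4 of the 71 libraries that the series lists. Of the 25579 genes in each library's table, 12604 were above 1 TPM (transcripts per 1000000, a level per length of transcript) in at least 1 of these 4 libraries. The cells were sorted directly from the bone marrow of C57BL/6 mice by a gate that includes B220 and Kit and leaves out cells with CD2, IgM or IgD, and poly(A) RNA was sequenced. The labels do not say whether the replicates came from separate animals or pools, so a p-value measures only the spread between these libraries. The OP deletion had been made by gene targeting in embryonic stem cells, which leaves a loxP site behind, and the HD was then deleted with CRISPR/Cas9 in zygotes that already lacked the OP. The alleles were backcrossed to C57BL/6. Mice with the OP deletion alone, Pax5(DOP/DOP), or the HD deletion alone, Pax5(DHD/DHD), gave 2 libraries each, also with reads of 100 nucleotides, and share the wild-type libraries. All these alleles are germline mutations, present in every cell of the animal.

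Pax5 is the factor that commits lymphoid progenitors to the B cell lineage. Its paired domain binds DNA, and from these sites Pax5 activates genes of the B cell programme and represses genes of other lineages. The OP is a short motif that recruits corepressors of the Groucho family, and the partial HD, which keeps only the first helix of a homeodomain, can contact the TATA-binding protein and the retinoblastoma protein. The question behind the comparison is which genes need these central domains when both are missing.

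Pax5 itself (Entrez gene 18507, chr4:44524748-44710694) is first, as the targeted gene. Its mRNA was at 342 and 360 TPM in the wild-type libraries and at 506 and 433 TPM in the double-mutant libraries. The groups did not overlap, as in 23.1% of all genes above 1 TPM in this direction. The difference of 0.42 on the log2 scale had an adjusted p of 0.122 from limma and did not pass the test. A level per gene cannot show the deletions, because the rest of the mRNA is still counted.

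Each library held 28928773 to 34905750 recovered reads. Of 17 pro-B cell markers, 17 were above 1 TPM. The surrogate light chain gene Igll1 was at 5810 and 6030 TPM in wild-type and 5700 and 6000 TPM in double-mutant cells. Among T cell markers, which include Lck and Tcf7, genes also read in early B cells, the summed level was 256 to 261 TPM against 310 to 343 TPM, while Bcl11b was at 0 in all 4 libraries and Cd3e was at most 0.385 TPM. Granulocyte and mast cell markers differed within each genotype. Their 17 genes summed to 938 and 7290 TPM in wild-type and to 669 and 7220 TPM in double-mutant cells, and 0 of them passed the test. Megakaryocyte and platelet markers were all higher in the double mutant among the 11 above 1 TPM, by 0.47 to 1.86 on the log2 scale (median 0.86). The genotypes did not overlap in 4 of these markers, as in 23.1% of all genes in this direction, and 0 passed the test. The markers of this list summed to 19.6 and 30.1 TPM against 29.8 and 102 TPM, and their part in the results was not tested.

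In double-mutant pro-B cells, 33 genes were past the thresholds the study used, which ask for more than a 3-fold difference, for over 5 TPM on average in either genotype and for an adjusted p below 0.05. This is 0.254% of 12996 genes tested. Of these genes, 14 were higher and 19 were lower than in wild-type cells, 0.108% and 0.146% of the genes tested. Without the fold and level thresholds, 156 genes (1.20%) had an adjusted p under 0.05, 94 higher (0.723%) and 62 lower (0.477%). These shares of 0.723% and 0.477% are the background for the called members of every gene list below. The test was limma on log2(TPM + 0.1) with Benjamini-Hochberg adjustment, fitted to the 8 libraries of the 4 genotypes. Fold changes below are on this scale, where the added 0.1 makes the change of scarce transcripts look smaller. With only the 4 libraries compared, 4 genes passed, all among the 33. Leaving out any 1 of the 8 libraries leaves 1 library in its genotype. Fewer than 33 genes then passed in each case, and in some of these fits not all of them were among the 33. When wild-type replicate 4 and double-mutant replicate 2, which had the higher granulocyte markers of their genotypes, were both left out, 1 library a genotype remained and the spread came from the single mutants alone, so that few calls could be made. Then 0 genes passed, with 1454 at an unadjusted p under 0.05. The log2 fold change of Gimap3 was 2.46 in that fit and 2.25 with all libraries, and that of Bcat1 was -1.97 and -2.01. Other genes moved more. In the same order, 2310008N11Rik was at -6.23 and -4.87, Cldn4 at -1.97 and -2.33, and Cacna1h at 3.08 and 3.38. All 33 genes passed with the granulocyte markers as a term in the fit. In bulk RNA, fewer cells that express a gene and less RNA per cell cannot be told apart.

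**Figure D1:**
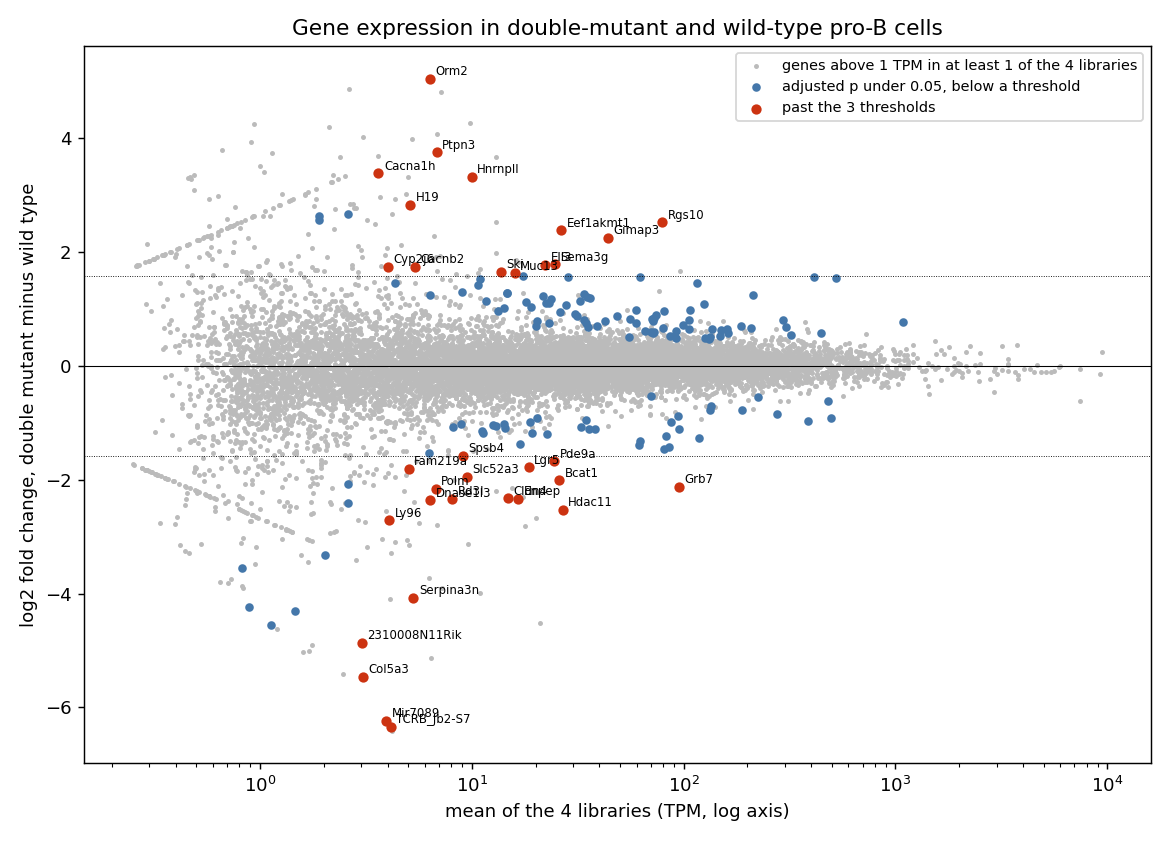
Log2 fold change of double-mutant minus wild-type pro-B cells (vertical axis) against the mean of the 4 libraries in TPM (horizontal log axis), 1 point a gene. The 33 named red points, 14 above and 19 below 0, are past the 3 thresholds, the blue points have an adjusted p under 0.05 but miss a threshold, and the dotted lines mark a fold change of 3.

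Among the 14 higher genes were 3 that act on RNA processing, transcription or translation. Hnrnpll, a regulator of alternative splicing of CD45, was at 1.23 and 2.4 TPM in wild-type and 18 and 18.4 TPM in double-mutant cells, a rise of 3.32 on the log2 scale (SE 0.36, limma's adjusted p = 0.0101). Eef1akmt1, a lysine methyltransferase of the elongation factor eEF1A, was at 7.99 and 8.81 TPM against 40.5 and 48.3 TPM (log2 fold change 2.38, SE 0.15, limma's adjusted p = 0.000771). Ell3, an RNA polymerase II elongation factor, was at 11.0 and 8.80 TPM against 41.3 and 27.8 TPM (log2 fold change 1.77, limma's adjusted p = 0.0238). In each of these genes both double-mutant libraries were above both wild-type libraries, as in 23.1% of all genes. The choice of the genes on these libraries largely sets this.

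Of 12 measured genes for CD45 and its splicing regulators, Hnrnpll alone passed the test. Ptprc, which encodes CD45 (B220 in its long form), was at 62.8 and 106 TPM in wild-type and 95.4 and 96.4 TPM in double-mutant cells (log2 fold change 0.23, limma's adjusted p = 0.727). Levels per gene do not separate its isoforms. Ptbp1, Srsf2 and Hnrnpl, the most abundant of the list, differed by 0.14, 0.00 and -0.16 on the log2 scale.

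Signalling genes made up the next group. Rgs10, which speeds the GTP hydrolysis of Gα proteins, had the lowest adjusted p of all genes and was at 21.5 and 25.4 TPM in wild-type and 126 and 144 TPM in double-mutant cells (log2 fold change 2.52, SE 0.12, limma's adjusted p = 0.000592). Ptpn3, a tyrosine phosphatase, was at 0.898 and 0.815 TPM against 13.7 and 11.9 TPM (log2 fold change 3.75, SE 0.20, limma's adjusted p = 0.000642). Ski, a corepressor of Smad proteins in TGF-β signalling, was at 6.35 and 6.77 TPM against 22.1 and 19.5 TPM (log2 fold change 1.65, limma's adjusted p = 0.0101). In the families of Rgs10 and Ski, no other gene passed the test. Of 10 RGS genes above 1 TPM, 1 rose and 0 fell (median log2 fold change 0.10), and of 15 genes of the TGF-β, Ski and Smad list 1 rose and 0 fell (median 0.11), beside a median of -0.01 over all 12604 genes and 0.723% of genes tested that rose. Both double-mutant libraries were above both wild-type libraries in 5 of the 10 RGS genes and 8 of the 15 others, which held for 23.1% of all genes.

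Gimap3 belongs to a cluster of GTPase genes of lymphocytes that lie side by side on chromosome 6. It was at 13.5 and 17.2 TPM in wild-type and 74.6 and 70.9 TPM in double-mutant cells (log2 fold change 2.25, SE 0.14, limma's adjusted p = 0.000771). Gimap8 was at 11.5 and 13.4 TPM against 27.3 and 23.6 TPM (log2 fold change 1.03, limma's adjusted p = 0.0358). The other 6 genes of the family did not pass the test, although in each of the 8 genes both double-mutant libraries were above both wild-type libraries, as in 23.1% of all genes. Their median log2 fold change was 0.58. Gimap4, with the largest difference of these 6, was at 28.2 and 71.0 TPM against 136 and 149 TPM (limma's adjusted p = 0.135), and the abundant Gimap6 was at 394 and 409 TPM against 552 and 490 TPM (adjusted p = 0.158). Gimap genes are similar in sequence, and how reads were split among them was not examined.

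A pair of voltage-gated calcium channel genes rose. Cacna1h, the pore-forming subunit of a T-type channel, was at 0.656 and 0.461 TPM in wild-type and 6.28 and 7.10 TPM in double-mutant cells (log2 fold change 3.38, SE 0.49, limma's adjusted p = 0.0238). Cacnb2, an auxiliary β subunit, was at 2.52 and 2.35 TPM against 8.01 and 8.67 TPM (log2 fold change 1.74, limma's adjusted p = 0.0174). Another pore-forming subunit moved the other way, since Cacna1e was at 18 and 17.2 TPM against 9.22 and 7.75 TPM and fell by 1.05 on the log2 scale (limma's adjusted p = 0.0439). The list thus held 2 higher and 1 lower gene of 9 above 1 TPM, where 0.723% of all genes tested were higher and 0.477% lower by the same rule. The most abundant of these, Cacnb1, was at 45.5 and 46.6 TPM against 69.1 and 49.9 TPM (adjusted p = 0.375).

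The other 5 higher genes encode secreted, membrane or metabolic proteins and a noncoding RNA. Orm2, an acute-phase protein of plasma, had the largest rise, from 0.624 and 0.0907 TPM to 13.7 and 10.8 TPM (log2 fold change 5.05, SE 0.70, limma's adjusted p = 0.0221). Its near-identical relatives may share reads with it. Sema3g, a secreted semaphorin, was at 14.3 and 8.47 TPM against 40.1 and 36.3 TPM (log2 fold change 1.78, limma's adjusted p = 0.0184). Muc13, a transmembrane mucin, was at 7.16 and 8.39 TPM against 24.5 and 23.9 TPM (log2 fold change 1.63, limma's adjusted p = 0.00701). These levels did not overlap between genotypes, which held for 23.1% of all genes in this direction. Cyp2j6, a cytochrome P450, was at 1.61 and 1.95 TPM against 5.43 and 7 TPM (limma's adjusted p = 0.0339). H19, an imprinted noncoding RNA, was at 1.72 and 0.767 TPM against 7.44 and 10.5 TPM (limma's adjusted p = 0.0241).

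**Figure D2:**
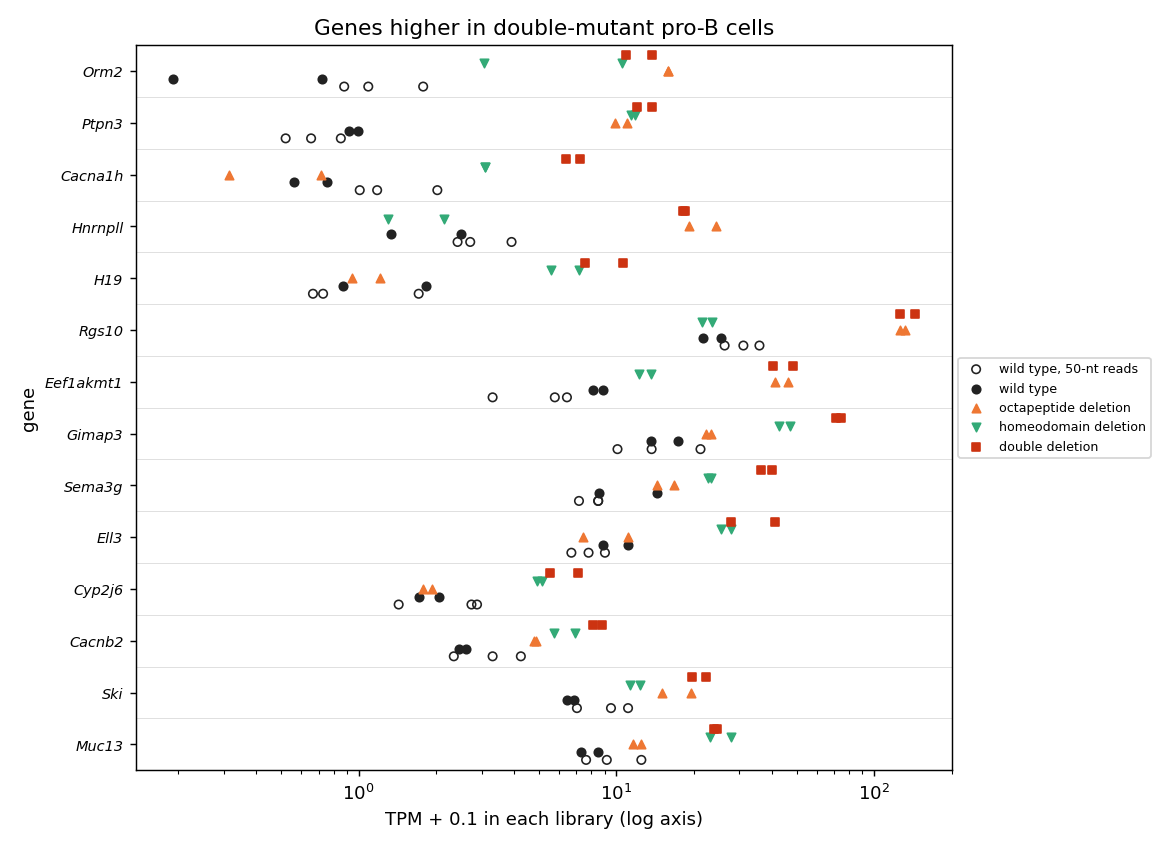
TPM + 0.1 in each library (horizontal log axis) of the 14 genes higher in double-mutant pro-B cells, 1 gene a line. Filled circles are the 2 wild-type libraries of the same run, open circles the 3 other wild-type libraries, and both red squares of the double mutant lie to the right of all 5 circles in each gene.

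Of the 19 lower genes, 3 encode enzymes that act on chromatin or DNA. Hdac11, a histone deacetylase, was at 48.8 and 43.0 TPM in wild-type and 8.58 and 7.23 TPM in double-mutant cells, and fell by 2.53 on the log2 scale (SE 0.24, limma's adjusted p = 0.00653). Polm, the DNA polymerase μ of end joining, was at 8.92 and 13.2 TPM against 1.77 and 3.12 TPM (log2 fold change -2.16, limma's adjusted p = 0.0241). Dnase1l3, a secreted nuclease, was at 9.95 and 11.4 TPM against 1.97 and 2.02 TPM (log2 fold change -2.36, limma's adjusted p = 0.0204). In Polm, the 3 other wild-type libraries of the series, which had reads of 50 nucleotides, stood apart from those of this run at 41.5, 36.8 and 21.6 TPM.

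Most genes of the lists these enzymes belong to did not pass the test. Of 22 Groucho and histone deacetylase corepressor genes above 1 TPM, 0 rose and 2 fell (median log2 fold change -0.05), compared with 0.477% of all genes tested that fell. The genotypes did not overlap in 7 genes that were higher and 6 that were lower in the double mutant, which held for 23.1% and 17.7% of all genes. Beside Hdac11 the gene that fell was Aes, a short Groucho family member. It was at 664 and 639 TPM in wild-type and 360 and 331 TPM in double-mutant cells, and fell by 0.92 on the log2 scale (SE 0.09, limma's adjusted p = 0.00701). Tle3, which encodes a full-length Groucho protein, was at 187 and 178 TPM against 196 and 188 TPM (log2 fold change 0.07, 95% interval -0.14 to 0.29). Of 17 genes for the TATA-binding protein and TFIID, 0 passed the test, and their log2 fold changes ran from -0.46 to 0.29. Of 17 genes of V(D)J recombination and end joining, Polm alone passed it. Rag1, at 451 and 495 TPM against 527 and 421 TPM, did not pass, and nor did Dntt, at 3160 and 3370 TPM against 4320 and 4080 TPM (limma's adjusted p = 0.135).

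Cell surface genes formed a second lower group. Enpep, the aminopeptidase BP-1 that marks late pro-B and pre-B cells, was at 25.4 and 29.7 TPM in wild-type and 3.85 and 7.45 TPM in double-mutant cells (log2 fold change -2.34, SE 0.32, limma's adjusted p = 0.0199). Lgr5, a receptor for R-spondins in Wnt signalling, was at 23.4 and 34.2 TPM against 9.60 and 6.92 TPM (log2 fold change -1.78, limma's adjusted p = 0.0241). Cldn4, a claudin, was at 25 and 24.1 TPM against 6.31 and 3.68 TPM (log2 fold change -2.33, limma's adjusted p = 0.0241). Ly96 encodes MD-2, the partner of TLR4 in binding endotoxin, and was at 6.28 and 8.03 TPM against 0.806 and 1.23 TPM (log2 fold change -2.71, limma's adjusted p = 0.0238). It was the only gene that passed the test among 15 of the Toll-like receptor list, where Unc93b1, Myd88 and Irak1 had adjusted p-values of 0.511 to 0.887.

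Intracellular signalling and metabolism followed. Grb7, an SH2 adaptor of receptor signalling, had the highest level of all lower genes and was at 172 and 135 TPM in wild-type and 43.9 and 27.7 TPM in double-mutant cells (log2 fold change -2.12, SE 0.26, limma's adjusted p = 0.0164). Pde9a, a phosphodiesterase of cyclic GMP, was at 33.8 and 41.1 TPM against 11.6 and 11.5 TPM (log2 fold change -1.68, SE 0.16, limma's adjusted p = 0.00584). It was the only called gene of 13 phosphodiesterases above 1 TPM, of which Pde2a, at 1600 and 1580 TPM against 2040 and 1960 TPM, was the most abundant (adjusted p = 0.148). Spsb4, a substrate receptor of ubiquitin ligases, was at 14.9 and 12.4 TPM against 5.27 and 3.80 TPM (log2 fold change -1.59, limma's adjusted p = 0.0328).

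Bcat1, the cytosolic aminotransferase of branched-chain amino acids, was at 37.7 and 45.3 TPM against 9.56 and 10.9 TPM (log2 fold change -2.01, SE 0.15, limma's adjusted p = 0.00229), the lowest adjusted p among the lower genes. Slc52a3, a riboflavin transporter, was at 16.0 and 14.1 TPM against 4.66 and 3.12 TPM (log2 fold change -1.95, limma's adjusted p = 0.0166). Both belong to a list of 12 genes of branched-chain amino acid and riboflavin metabolism, of which the other 10 did not pass the test.

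Large falls were seen in genes with low levels. Col5a3, a fibrillar collagen chain, was at 5.94 and 6.25 TPM in wild-type and 0.0398 and 0.0404 TPM in double-mutant cells (log2 fold change -5.47, SE 0.60, limma's adjusted p = 0.0103). 2310008N11Rik was at 7.42 and 4.35 TPM against 0 and 0.292 TPM (limma's adjusted p = 0.0238). Serpina3n, a secreted protease inhibitor, was at 11.7 and 8.35 TPM against 0.233 and 0.947 TPM (log2 fold change -4.08, limma's adjusted p = 0.0199). It belongs to an acute-phase list with Orm2, in which 5 genes were above 1 TPM, 1 rose and 1 fell.

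Rd3l was at 13.1 and 14 TPM against 2.88 and 2.38 TPM (log2 fold change -2.33, limma's adjusted p = 0.00584), and Fam219a at 8.67 and 7.12 TPM against 2.15 and 2.19 TPM (log2 fold change -1.81, limma's adjusted p = 0.0402). The remaining features rest on few reads. Mir7089, whose span lies in that of Cdc25a, was at 10.7 and 5.16 TPM in wild-type cells from 9 and 5 recovered reads. The T cell receptor segment TCRB_Jb2-S7 was at 10.5 and 6.10 TPM from 6 and 4 reads. Both were listed at 0 in the double-mutant libraries, and also in the 4 libraries of the single mutants. Their fitted falls, by 6.23 and 6.34 on the log2 scale, are the largest of all 33 but are set by the 0.1 added to a level of 0. In the 3 wild-type libraries with reads of 50 nucleotides, Mir7089 was at 1.27, 0 and 0 TPM and TCRB_Jb2-S7 at 3.74, 4.17 and 4.34 TPM.

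**Figure D3:**
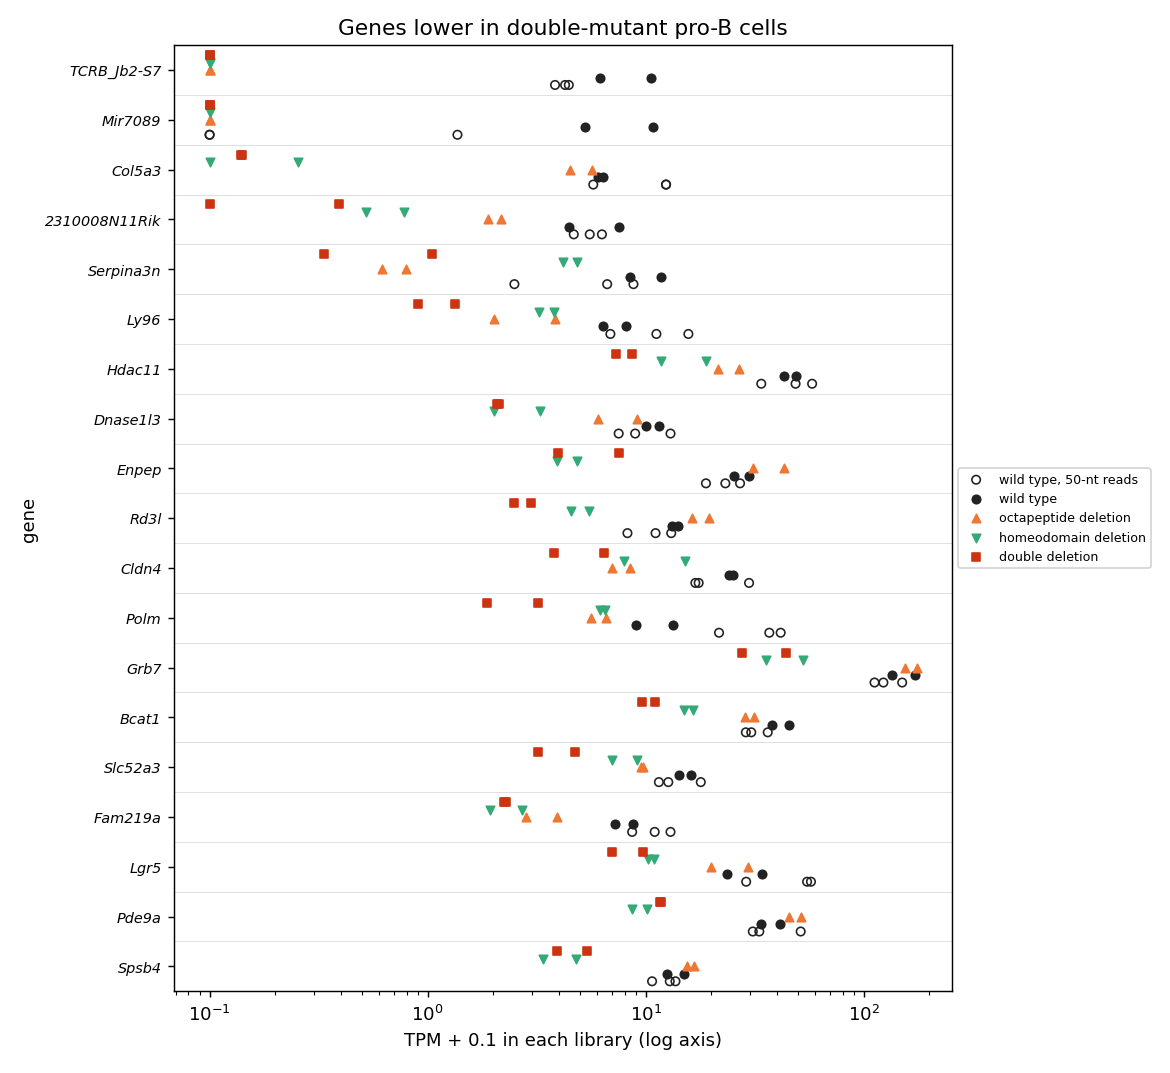
TPM + 0.1 in each library (horizontal log axis) of the 19 genes lower in double-mutant pro-B cells, 1 gene a line. Both red squares of the double mutant lie to the left of all 5 wild-type circles in 18 genes, the exception being Mir7089, which is listed at 0 in 2 of the open circles.

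The 3 other wild-type libraries took no part in this test and were sequenced separately. Both double-mutant libraries were above all 3 of them in 14 of the 14 higher genes, which held for 15.6% of all genes, and below all 3 in 18 of the 19 lower genes, which held for 31.4%. The genes had been chosen on the same double-mutant libraries, so these counts are largely set by that choice. They are no separate support for the changes.

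A further 123 genes had an adjusted p under 0.05 but missed a threshold, 10 of them the level and 113 the fold change. The largest falls among them were those of Snora75, Cd300c, Ccl27a, 4930426D05Rik, 3930402G23Rik and Mcf2l, by 2.41 to 4.55 on the log2 scale. Mcf2l was at 4.56 and 4.33 TPM in wild-type and 0.647 and 0.881 TPM in double-mutant cells. The largest rises were those of Stum, Fam78b, Asb10, Car3, Mmp14 and Ndrg1, by 1.56 to 2.68. Ndrg1, a stress-induced gene, was at 29.6 and 33.4 TPM against 90.9 and 95.4 TPM (limma's adjusted p = 0.00229), and Mmp14, a membrane metalloproteinase, at 13.3 and 15.4 TPM against 40.5 and 44.8 TPM (limma's adjusted p = 0.00584).

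Of the 17 pro-B cell markers 2 rose, Kit and Cd93, and 1 fell, Enpep, with a median log2 fold change near 0. By the same rule 0.723% of all genes tested rose and 0.477% fell. Kit, the receptor used in the sort, was at 56.6 and 59.0 TPM in wild-type and 88.5 and 86.7 TPM in double-mutant cells (log2 fold change 0.60, limma's adjusted p = 0.0429). Cd93, a marker of immature B cells, was at 208 and 257 TPM against 382 and 363 TPM (log2 fold change 0.69, limma's adjusted p = 0.0339). Ly6d, a marker of B-biased lymphoid progenitors, was the only called gene of 8 on the list of plasmacytoid dendritic cell markers (median -0.23) and was at 298 and 239 TPM against 746 and 811 TPM (log2 fold change 1.54, limma's adjusted p = 0.00324). Kit, Cd93 and Ly6d were higher in both double-mutant libraries than in both wild-type libraries, as were 23.1% of all genes.

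Of 32 BCR and pre-BCR signalling genes, 1 rose, Plcg2, and 2 fell, Grb7 and Cd22, with a median log2 fold change near 0. The shares of all genes tested were 0.723% higher and 0.477% lower. Cd22, an inhibitory receptor, was at 47.6 and 56.8 TPM against 27.7 and 21 TPM and fell by 1.10 on the log2 scale (limma's adjusted p = 0.0238). Fcrla, an intracellular Fc receptor-like protein of B cells, was the only called gene of 11 Fc receptor genes above 1 TPM and was at 115 and 146 TPM against 57.2 and 62.6 TPM and fell by 1.12 (limma's adjusted p = 0.0173). Plcg2, the phospholipase below the receptor, rose by 0.58 from 348 and 368 TPM to 552 and 519 TPM (limma's adjusted p = 0.0224).

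B-lineage transcription factors changed little. Of 26 above 1 TPM, 1 rose and 0 fell. For this and the other lists of this paragraph, 0.723% of all genes tested rose and 0.477% fell. Spi1, which encodes PU.1, was at 109 and 127 TPM against 184 and 182 TPM (log2 fold change 0.64, limma's adjusted p = 0.0287). Ebf1, at 255 and 333 TPM against 298 and 259 TPM, and Tcf3, at 1060 and 981 TPM against 1060 and 923 TPM, did not pass the test. The T cell signalling adaptor Lat was at 50.3 and 52.5 TPM against 99.7 and 82.6 TPM (log2 fold change 0.82, limma's adjusted p = 0.0241) and was the only called gene of 11 T cell markers above 1 TPM. Of 18 interferon-stimulated genes, Irf7 and Cgas rose, by 0.89 and 1.46 (limma's adjusted p = 0.0224 and 0.0492). No gene passed the test among 28 cell cycle genes, 19 of IL-7 receptor signalling, 10 of MHC class II presentation, 12 immediate-early and AP-1 genes above 1 TPM or 10 heat-shock genes. Of 6 class 3 semaphorin and plexin genes above 1 TPM only Sema3g was called.

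Since either domain might account for a change, the double mutant was compared with each single mutant in the same fit. These comparisons share the double-mutant libraries with the one above, so their values are given side by side and are not independent of it. Against the HD mutant, 3 genes were past the thresholds (0.0231% of 12996), Rgs10, Hnrnpll and Eef1akmt1, all higher in the double mutant. Rgs10 was at 23.4 and 21.4 TPM in HD-mutant and 132 and 126 TPM in OP-mutant cells. It was higher in the double mutant than in the HD mutant by 2.58 on the log2 scale (limma's adjusted p = 0.000489), and its difference from the OP mutant was 0.06 (95% interval -0.23 to 0.35). Hnrnpll was at 1.20 and 2.04 TPM in HD-mutant and 19.0 and 24.2 TPM in OP-mutant cells. Eef1akmt1 was at 12.1 and 13.5 TPM and at 46.4 and 41.1 TPM in the same order. All 3 thus stood near the OP mutant's level. On the adjusted p alone, 6 genes differed from the HD mutant, among them Dennd3, Dnajb5 and Aes. Aes was at 714 and 651 TPM in HD-mutant and 452 and 499 TPM in OP-mutant cells, above the double mutant's 360 and 331 TPM in all 4 libraries.

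Against the OP mutant, 30 genes were past the thresholds (0.231%), 16 higher and 14 lower in the double mutant. Among the lower ones were Col5a3, Enpep, Rd3l, Grb7, Pde9a, Dnase1l3 and Spsb4. Grb7 was at 154 and 175 TPM in OP-mutant and 52.6 and 35.5 TPM in HD-mutant cells. Enpep was at 43.1 and 31.0 TPM and at 4.73 and 3.81 TPM, and Pde9a at 45.4 and 51.6 TPM and at 9.99 and 8.57 TPM, in the same order. In these genes the double mutant stood near the HD mutant's level. Among the higher ones were Cacna1h, Gimap3, H19, Ell3 and Cyp2j6, of which Cacna1h was at 0.617 and 0.213 TPM in OP-mutant, 3.00 and 2.99 TPM in HD-mutant and 6.28 and 7.10 TPM in double-mutant cells. The granulocyte and mast cell markers summed to 8130 and 8520 TPM in the OP mutant and to 499 and 1860 TPM in the HD mutant. With their summed level as a term in the fit, an alternative chosen after seeing the data, 40 genes were past the thresholds, 25 of them among the 30, and 3 genes read in myeloid cells, Cebpa, Cd36 and Trem1, are among the 30, the first 2 lower and Trem1 higher in the double mutant.

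For some genes the double mutant stood beyond both single mutants. Hdac11 was at 26.6 and 21.3 TPM in OP-mutant, 18.9 and 11.6 TPM in HD-mutant and 8.58 and 7.23 TPM in double-mutant cells. Gimap3 was at 22.2 and 23.2 TPM, 46.9 and 42.8 TPM, and 74.6 and 70.9 TPM in the same order. Polm was at 5.53 and 6.45 TPM, 6.05 and 6.43 TPM, and 1.77 and 3.12 TPM. Such an order is what a sum of 2 separate effects on the log scale would give, so the departure from that sum was tested for each gene.

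The departure is the change in the double mutant minus the sum of the changes in the OP and HD mutants, on the log2 scale. It passed the test in 1 of 12996 genes (0.00769%), Ptpn3, and 903 genes had an unadjusted p under 0.05. Ptpn3 was at 10.9 and 9.76 TPM in OP-mutant and 11.3 and 11.7 TPM in HD-mutant cells, so each deletion alone came with nearly the level of the double mutant, 13.7 and 11.9 TPM. The double mutant was below the sum by 3.30 on the log2 scale (95% interval -3.97 to -2.63, limma's adjusted p = 0.0478). Over 20 alternatives the departure stayed below 0, from -3.49 to -2.47, but it passed the test in 4 of them, and in limma its adjusted p ran from 0.0290 to 0.913. Among the 33 genes past the thresholds, 25 had an interval of the departure that includes 0. For Hdac11 it was 0.04 (95% interval -0.75 to 0.83), for Gimap3 0.13 (-0.33 to 0.59), for Rgs10 0.12 (-0.28 to 0.53), for Pde9a -0.06 (-0.57 to 0.45) and for Polm -0.51 (-1.56 to 0.53). The other 7 genes, besides Ptpn3, had intervals without 0, although none passed the test after adjustment. The departure was -4.30 for Orm2 (-6.59 to -2), -1.27 for Rd3l (-1.96 to -0.58), -0.68 for Muc13 (-1.21 to -0.15), -0.59 for Eef1akmt1 (-1.08 to -0.10) and 1.25 for Fam219a (0.24 to 2.27). Mir7089 and TCRB_Jb2-S7 were above the sum by 6.23 and 6.34, values that their 0 in all mutant libraries fixes. The median distance from the estimate to the end of its interval was 0.87 for these 33 genes and 0.62 over all genes tested. These intervals are not adjusted for the number of genes. Departures beyond that size, such as -4.30 for Orm2, -1.27 for Rd3l and 1.25 for Fam219a, also did not pass after adjustment. With 2 libraries a genotype, the absence of a call therefore does not show that the effects of the deletions added up.

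**Figure D4:**
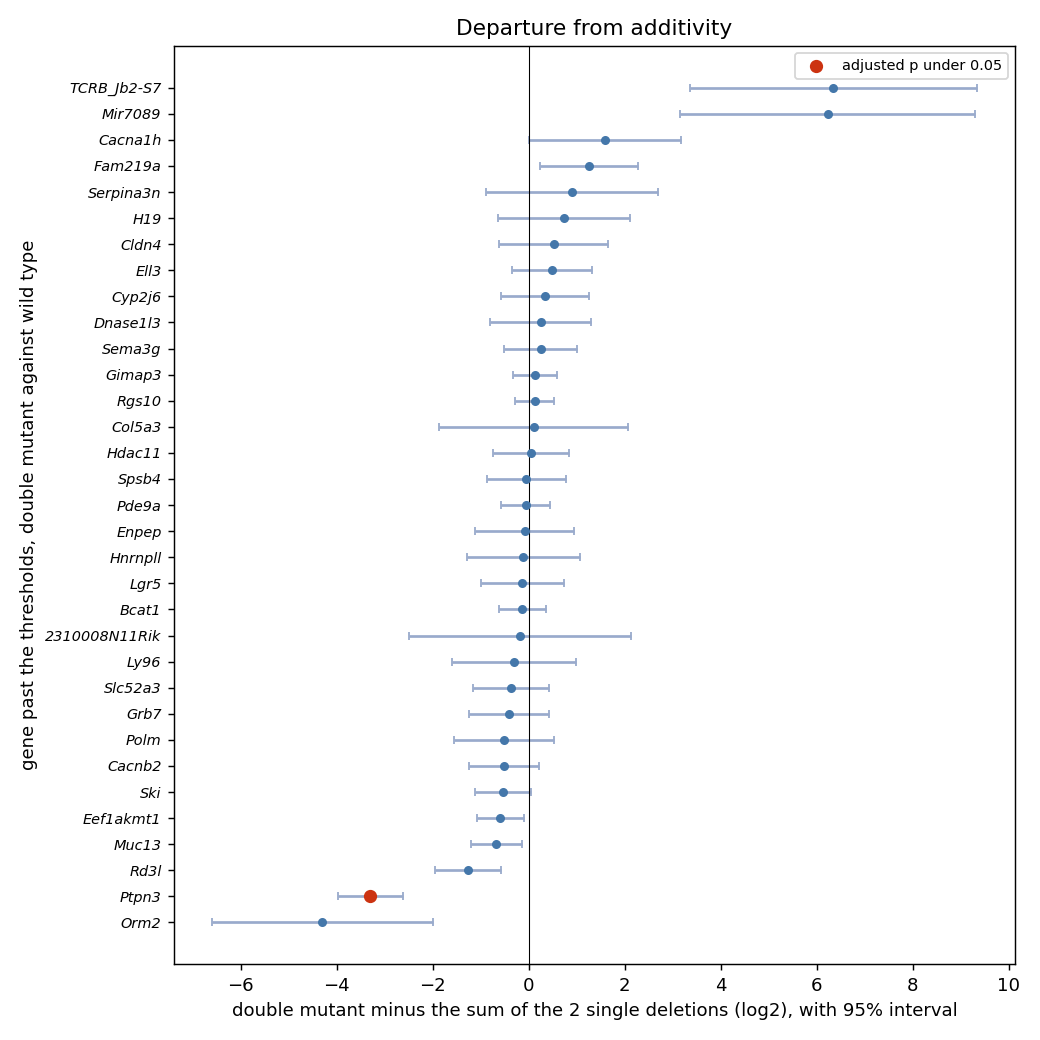
Departure of the double mutant from the sum of the OP and HD deletions on the log2 scale (horizontal axis), with its 95% interval from limma, for the 33 genes past the thresholds. Ptpn3, in red at -3.30, is the only one with an adjusted p under 0.05, and 25 intervals include 0.

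Ptpn3 lies on chromosome 4, at chr4:57190841-57339040, 12.5 Mb from Pax5. The distance of the called genes from Pax5 was therefore examined, in a window of 20 Mb on either side that was chosen after the values had been seen. Of 173 genes tested in this window, 9 (5.20%) had an adjusted p under 0.05, compared with 8 of 598 (1.34%) on the rest of chromosome 4 and 153 of 12771 (1.20%) of all genes with a location. No test was made of this difference. The 9 genes were Fam219a, Ccl27a, Dnajb5, Clta, 5730488B01Rik, Epb41l4b, Ptpn3, Alad and Orm2, and 3 of them, Fam219a, Ptpn3 and Orm2, were past the thresholds. Orm2 lies 18.7 Mb from Pax5 and was at 15.7 and 15.7 TPM in OP-mutant and 2.97 and 10.4 TPM in HD-mutant cells. Fam219a lies 3.0 Mb away and was at 2.72 and 3.80 TPM in OP-mutant and 2.60 and 1.84 TPM in HD-mutant cells. All 3 genes thus moved in the same direction in each mutant, which share the wild-type libraries. Ccl27a, 2.8 Mb away, was at 0 in both double-mutant and both OP-mutant libraries, and at 1.81 and 1.75 TPM in the HD mutant, close to the 1.89 and 1.67 TPM of wild-type cells. 5730488B01Rik lies inside Pax5, and its reads cannot be told apart from those of Pax5 without strand. Whether the DNA around the targeted locus differed in strain origin between the genotypes was not tested.

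**Figure D5:**
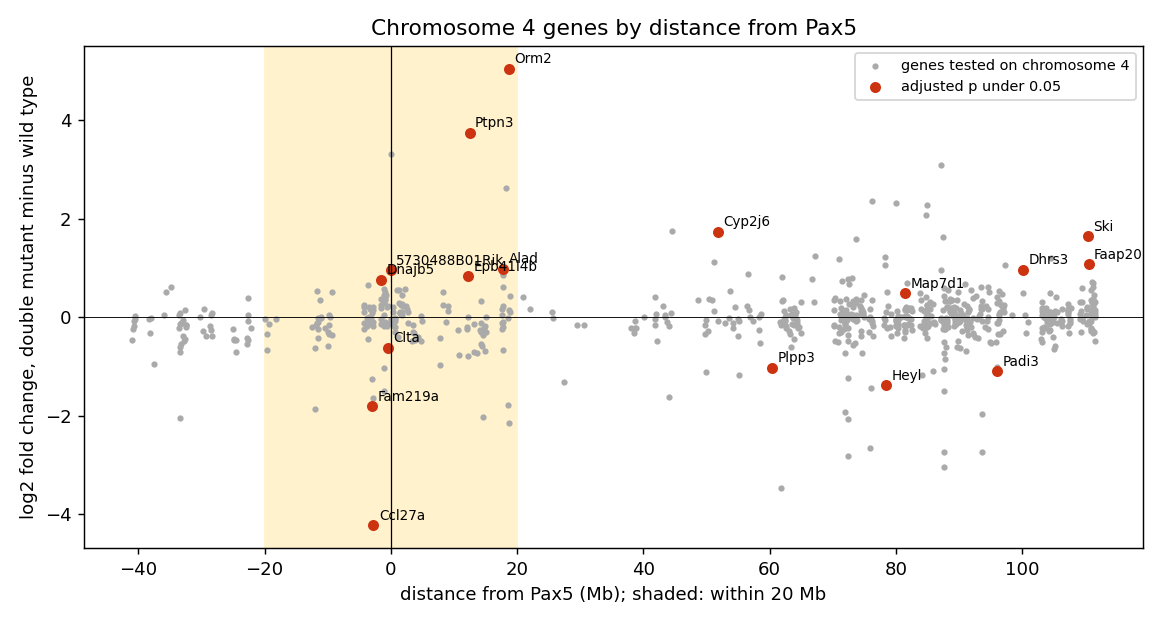
Log2 fold change of double-mutant minus wild-type pro-B cells (vertical axis) of the genes tested on chromosome 4, against their distance from Pax5 in Mb (horizontal axis, shaded within 20 Mb). Red points have an adjusted p under 0.05, and 9 of them, Ptpn3 and Orm2 with the largest rises, lie in the shaded window.

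The promoter sequences of RefSeq on GRCm38, 250 bases before to 50 after each start site, were searched on both strands for TATAAA, a motif bound by the TATA-binding protein, to which the HD can bind. Sequences were at hand for 9606 of the 12604 genes, and 809 (8.42%) held the motif. Of the 10 higher genes with a sequence 1 held it (10%), and of the 11 lower genes 3 (27.3%), Bcat1, Enpep and Rd3l. The difference between these shares was not tested. In Bcat1 the match begins at -219 from the start site, on the strand of the gene. On the other strand, matches begin at -52 and -1 in Enpep and at -182 in Rd3l. A match is a description and not a binding site. In Orm2, the gene with the largest rise, it begins 33 bases before the start site, on the strand of the gene, at the place a TATA box usually takes. Its promoter, chr4:63362199-63362498 on the plus strand, is shown with the motif in capitals.
Orm2: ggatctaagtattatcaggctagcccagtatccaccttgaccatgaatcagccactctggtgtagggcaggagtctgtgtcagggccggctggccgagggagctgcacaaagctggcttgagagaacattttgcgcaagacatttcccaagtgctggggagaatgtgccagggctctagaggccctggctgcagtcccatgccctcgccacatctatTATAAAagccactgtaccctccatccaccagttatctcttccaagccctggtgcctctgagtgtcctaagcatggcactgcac

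Finally, the 33 genes were looked up in Pax5-deficient progenitors, Vav-Cre Pax5(fl/fl), in which a Cre expressed in blood cells removes Pax5. These 2 libraries were compared with the 3 wild-type libraries of 50 nucleotides, so that no library is shared with the comparison above. The progenitors were sorted by another gate, and the stage of the cells cannot be told apart from the loss of Pax5. By an adjusted p under 0.05 in limma, 13.2% of 13338 genes were higher and 11.4% lower in these progenitors. Of the 14 genes higher in the double mutant, 10 were also higher there and 4, Cacna1h, H19, Muc13 and Ski, did not pass the test. Of the 19 lower genes, 16 were also lower, Ly96 and Mir7089 did not pass, and TCRB_Jb2-S7 was higher.

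The sizes differed from gene to gene. Grb7 was at 1.25 and 1.20 TPM in the progenitors, compared with 112, 150 and 123 TPM in the wild-type libraries of the same read length, a log2 fold change of -6.59, while it fell by 2.12 in the double mutant. Pde9a and Enpep were at 0.0629 and 0 TPM and at 0.0308 and 0 TPM, compared with 11.6 and 11.5 TPM and 3.85 and 7.45 TPM in the double mutant. Hdac11, which was also lower in the progenitors than in wild-type cells, was at 17.7 and 13.4 TPM there, above the double mutant's 8.58 and 7.23 TPM. Rgs10 was at 73.3 and 57.3 TPM in the progenitors and at 126 and 144 TPM in the double mutant. Hnrnpll was at 19.6 and 23.4 TPM, and Eef1akmt1 at 64.6 and 51.5 TPM, both near the double mutant's levels. Levels across the 2 runs were not tested against each other.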

How the data were processed

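Poly(A) RNA of sorted cells was sequenced as single reads. Per the study's methods, the authors trimmed reads to 50 bases, aligned them to GRCm38/mm10 with STAR 2.4.2a, counted RefSeq genes with Rsubread and deposited TPM. Library preparation is not stated to mark strand, so overlapping and antisense genes cannot be told apart. Beside TPM, read counts were recovered from deposited values: at a tolerance of 0.001, 100% of the values tested were whole.

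Groups came from the labels. log2(TPM + 0.1) was compared with limma 3.58.1 (R 4.3.3) with a trend of the spread and Benjamini-Hochberg adjustment, over 12996 genes above 1 TPM in at least 1 of 8 libraries. As in the study, calls exclude genes of immunoglobulins and histones. An exact permutation test of 2 against 2 libraries cannot reach 0.05 and was not used. Scripts were tested on simulated data. Alternatives were edgeR 4.0.16 and DESeq2 1.42.0 on recovered counts, other pseudocounts, filters, scalings and sets of libraries. A granulocyte marker term and leaving out wild-type replicate 4 and double-mutant replicate 2 were chosen after seeing the data.

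Members and gene lists were chosen with earlier results of these data known. Named genes were all genes past the thresholds, the 6 largest changes in each direction that miss a threshold, any gene with a called departure, and, of each list, its called or 3 most abundant members. Genes named from the single-mutant comparisons and the window around Pax5 were chosen after their values were seen. Some items are not reported here.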

Additional observations from a re-analysis of the deposited data

Results flagged for a closer look

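The departure of Ptpn3 from the sum of the single deletions, -3.3 on the log2 scale, stands out because the effect of deleting the OP differed with the state of the HD in the test used here. Deletion of the OP came with a difference of 3.45 in cells with the HD and of 0.15 in cells without it, where the double mutant is set against the HD mutant. The difference between these 2 effects was tested directly, as the interaction of the 2 deletions in limma (adjusted p = 0.0478). It passed in 4 of 20 alternatives, and the adjusted p in limma ran from 0.0290 to 0.913 over them. Ptpn3 lies in the window around Pax5, where the strain origin of the DNA was not tested.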

How the results depend on the processing

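Of the 33 genes past the thresholds, 0 had an adjusted p under 0.05 in all of the 20 or 21 alternatives run for them. All 33 kept their direction in each alternative. They had been chosen on the same libraries, which largely sets this, so it is no separate support for the changes. The count of genes past the thresholds was 21 with no filter on low values, 16 with no trend of the spread, 4 with only the 4 libraries compared and 0 without wild-type replicate 4 and double-mutant replicate 2, which leaves 1 library a genotype and takes the spread from the single mutants (both OP libraries, also high in granulocyte markers, stay in). Leaving out 1 library gave 5 to 13 (wild-type replicates 3 and 4, 9 and 13; OP mutant, 12 and 11; HD mutant, 10 and 11; double mutant, 5 and 6), where fewer samples estimate the spread and the lone sample is assumed to vary like the other groups. The count by adjusted p alone, 156, was 533 with DESeq2, 253 with edgeR, 91 with no filter, 51 with no trend, 5 with 4 libraries, 0 without both, and 5 to 34 leaving out 1 library. The departure was called in 32 genes with DESeq2, 2 with edgeR and 2 with no trend. It was called in 0 with pseudocounts of 0.01 or 1, no filter, a filter of 5 TPM, quantile normalization, all 5 wild-type libraries or the granulocyte term. Ptpn3 was not called in any fit without 1 library or without both, where its departure stayed below 0. Against the HD mutant the count of 3 was 19 with DESeq2, 8 with edgeR, 1 with no trend, 0 without both and 0 to 3 leaving out 1 library. Against the OP mutant the count of 30 was 49 with DESeq2, 15 with no trend, 0 without both and 0 to 30 leaving out 1 library. With the replicate number as a block in the 6 mutant libraries, these counts were 5 against the HD mutant and 40 against the OP mutant. Same-numbered mutant libraries did not deviate together (r across genes 0.013 to 0.096), so the numbers were not taken as pairs. No paired analysis was possible because the wild-type libraries are numbered 3 and 4 and share no number with the double mutant. The cause of the other changes was not tested.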
